A study of Mus musculus with 8 samples.

Results

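The red cell and plasma miRNAs described here are 7 of the 1966 mature miRNAs counted in sorted mouse microglia. They were chosen by name: mmu-miR-451a, mmu-miR-144-3p, mmu-miR-144-5p and mmu-miR-486a-5p as miRNAs of red blood cells, and mmu-miR-122-5p, mmu-miR-192-5p and mmu-miR-194-5p as miRNAs of the liver that also circulate in plasma. Small RNA was sequenced in 8 libraries of microglia from male C57BL/6 mice, 4 from young mice of 3 months and 4 from aged mice of 21 months, and the question was whether these 7 miRNAs differ with age and covary across libraries. The labels name no genotype and no treatment for either age, and all mice were perfused with DPBS before the brain was taken without olfactory bulb and cerebellum. After myelin removal, live single cells with CD11b, low CD45 and no CD206 were sorted, and 10000 to 40000 cells entered a library. The library called aged mouse 4 here pooled cells of 2 mice, because fewer than the required minimum of 10000 cells would otherwise have been available. Every other library came from 1 mouse.

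MiRNAs are short RNAs that guide a silencing complex to messenger RNAs, mostly by pairing through the seed near their 5′ end. The cluster of miR-144 and miR-451a is transcribed from 1 locus in maturing red cells under the erythroid factor GATA1, and miR-451a, which is cut by Argonaute 2 in place of Dicer, and miR-486a-5p are among the most abundant miRNAs of red blood cells. miR-122-5p is the dominant miRNA of hepatocytes, miR-192-5p and miR-194-5p are made together in liver, gut and kidney, and all of these are commonly measured in plasma, where hemolysis raises the red cell miRNAs.

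Mature sequences from RefSeq (GRCm38.p6) are shown for 5 of the 7 miRNAs. The seed (bases 2 to 8) is in capitals, because it sets which targets a miRNA can pair with.
miR-451a: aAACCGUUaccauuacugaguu
miR-144-3p: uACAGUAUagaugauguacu
miR-144-5p: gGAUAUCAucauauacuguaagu
miR-192-5p: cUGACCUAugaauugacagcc
miR-194-5p: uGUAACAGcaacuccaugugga
No other of the RefSeq mature miRNAs that match the count table shared the full seed of miR-451a, miR-144-3p, miR-144-5p or miR-194-5p. The seed of miR-192-5p was shared with miR-215-5p, its paralog, which is identical to it in 18 of 21 positions, and miR-101a-3p shares bases 2 to 7 with miR-144-3p but only 8 of 20 positions counted from the 5′ end.
miR-215-5p: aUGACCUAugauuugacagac
miR-101a-3p: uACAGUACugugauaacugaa

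The erythroid pair lies in 1 short stretch of the genome. The annotation of GRCm38 places the hairpin of Mir144 at chr11:78073005-78073070 and that of Mir451a at chr11:78073170-78073241, both on the plus strand, with 99 bases between them and no other gene on that strand. The hairpins are shown with the mature miRNAs in capitals, since 2 of them come from 1 and only 1 from the other.
Mir144 hairpin: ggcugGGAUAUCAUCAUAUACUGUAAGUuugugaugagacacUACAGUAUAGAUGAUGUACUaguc
Mir451a hairpin: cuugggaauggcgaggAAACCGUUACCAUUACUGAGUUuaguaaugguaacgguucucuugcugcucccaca
Mir451b occupies the span of Mir451a on the minus strand and had 0 counts in all 8 libraries. Mir486 (chr8:23142555-23142682, plus strand) lies in an intron of Ank1, which encodes erythrocyte ankyrin, on the same strand. miR-194-5p has 2 hairpins, Mir194-2 at chr19:6264643-6264728, 115 bases before Mir192 (chr19:6264844-6264932), and Mir194-1 at chr1:185313319-185313385, 195 bases before Mir215, in an intron of Iars2 on the opposite strand.

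The table held 208379 to 298820 miRNA counts in a young library and 150322 to 235124 in an aged one, and 315 to 441 miRNAs were detected in a library. The difference in counts did not pass a two-sided exact permutation test (p = 0.0857, where 4 against 4 libraries cannot go below 0.0286). Even so, aged mice 1, 2 and 4 (150322, 168793 and 180323 counts) lay below every young library, so depth was not balanced between the ages. Levels are given as counts per 1000000 miRNA counts (CPM). The floor of 3 counts corresponds to 10.0 to 20.0 CPM, and Wilson 95% intervals and floors cover counting error only. The methods name no molecular identifiers, so copies of the same molecule were not separated and the intervals may be too narrow even for that. Of all 1966 miRNAs, 666 were detected, and the 419 with at least 5 counts in at least 1 mouse of an age were tested. Of the 7 red cell and plasma miRNAs, 6 were detected and 4 were tested, namely miR-451a, miR-144-3p, miR-122-5p and miR-192-5p. The 6 listed microglial and myeloid miRNAs, such as miR-142a-3p and miR-146a-5p, summed to 74138 to 86136 CPM in young and 61246 to 84685 CPM in aged libraries. Most of this was miR-146a-5p, with a mean of 54772 CPM in young and 50036 CPM in aged mice. Whether the sum separates microglia from other myeloid or blood cells was not tested. The 7 miRNAs together made up between 0.0302% (young mouse 2) and 0.243% (aged mouse 4) of the miRNA counts.

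miR-122-5p and miR-451a were higher in aged microglia, each about 2.5-fold by the ratio of mean CPM (2.50 and 2.60), whereas miR-144-3p and miR-192-5p did not pass the test. The call was lost for miR-451a in 5 and for miR-122-5p in 4 of 16 alternative settings, among them the fit without aged mouse 4 (edgeR adjusted p = 0.191 and 0.0938), bias-adjusted estimates (0.0660 and 0.0538) and limma (0.434 for each). The red cell miRNA miR-486a-5p, by contrast, was not detected in any library. For scale, 9 of the 419 tested miRNAs (2.15%) were called higher in aged mice by edgeR's quasi-likelihood test and 16 (3.82%) were called in either direction, 7 of them (1.67%) lower. A log2 fold change above 0, which all 4 tested red cell and liver miRNAs had, was found for 47.5% of the tested miRNAs, and an unadjusted p under 0.05, which 3 of the 4 had, for 12.2%. Without the TMM factors the split of calls was 5 higher and 7 lower in place of 9 and 7.

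mmu-miR-451a was the most abundant of the red cell miRNAs. Young mice 1 to 4 had 30, 19, 86 and 51 counts, or 100, 91.2, 317 and 219 CPM, and aged mice 1 to 4 had 33, 63, 113 and 147 counts, or 220, 373, 481 and 815 CPM. Aged mouse 4 was the highest of all 8, aged mice 2 and 3 exceeded every young mouse, and aged mouse 1 lay between young mice 4 and 3, so the groups overlapped. Its mean was 181.9 ± 107 CPM in young and 472 ± 253 CPM in aged mice (SD, n = 4 each), and its log2 fold change, aged minus young, was 1.42 with a standard error of 0.34 (edgeR, adjusted p = 0.00242). The two-sided exact permutation test on log2(CPM + 5) gave p = 0.0571, where 4 against 4 libraries cannot go below 0.0286. In the rank order of its own library it held places 98 to 180 at 3 months and 63 to 118 at 21 months.

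The other products of the locus were far lower. miR-144-3p, from the same transcript and with a seed of its own, had 3, 6, 6 and 0 counts across young libraries 1 to 4 and 2, 5, 16 and 21 across aged libraries 1 to 4. These correspond to 10.0, 28.8, 22.13 and 0 CPM and to 13.3, 29.6, 68.0 and 116 CPM. Aged mice 3 and 4 stood above every young library, aged mouse 2 exceeded the highest of them by less than 1 CPM, and in aged mouse 1 the count was under the floor. The log2 fold change was 1.97 with a standard error of 0.90, which did not pass after adjustment (edgeR, p = 0.0284, adjusted p = 0.305), and the exact permutation test gave p = 0.114. miR-144-5p, from the other arm of that hairpin, had 4 counts in aged mouse 3, or 17.0 CPM (Wilson interval 6.62 to 43.7 CPM), and 0 in every other library. In the 7 libraries that held miR-144-3p, miR-451a had 3.17 to 16.5 counts for each count of miR-144-3p, with no separation of the ages, since young mice spanned 3.17 to 14.3 and aged mice 7.0 to 16.5.

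miR-486a-5p, the remaining red cell miRNA, had 0 of the 1746050 counts of all libraries. Pooled over the 8 libraries, this allows a level of up to 1.72 CPM. In single libraries the upper Wilson limits were 12.9 to 25.6 CPM. miR-486b-5p, its near-identical relative, was likewise at 0. Only the 3p arms were counted. miR-486a-3p had 0, 9, 0 and 2 counts across young libraries 1 to 4 and 0, 1, 5 and 2 across the aged ones, and miR-486b-3p had 7 counts in young mouse 2, 3 in aged mouse 3 and none elsewhere. Neither 3p arm passed the test (log2 fold changes of -0.16 and -0.89 with standard errors of 1.71 and 2.04, edgeR adjusted p = 0.957 and 0.914). The highest counts of both lay in young mouse 2, the library with the least miR-451a. The 2 hairpins cannot be separated by these reads if a read was divided between paralogs, and how that was done is not given in the sources used here. Whether the handling of shared reads affected the 0 of both 5p arms was not tested.

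**Figure D1:**
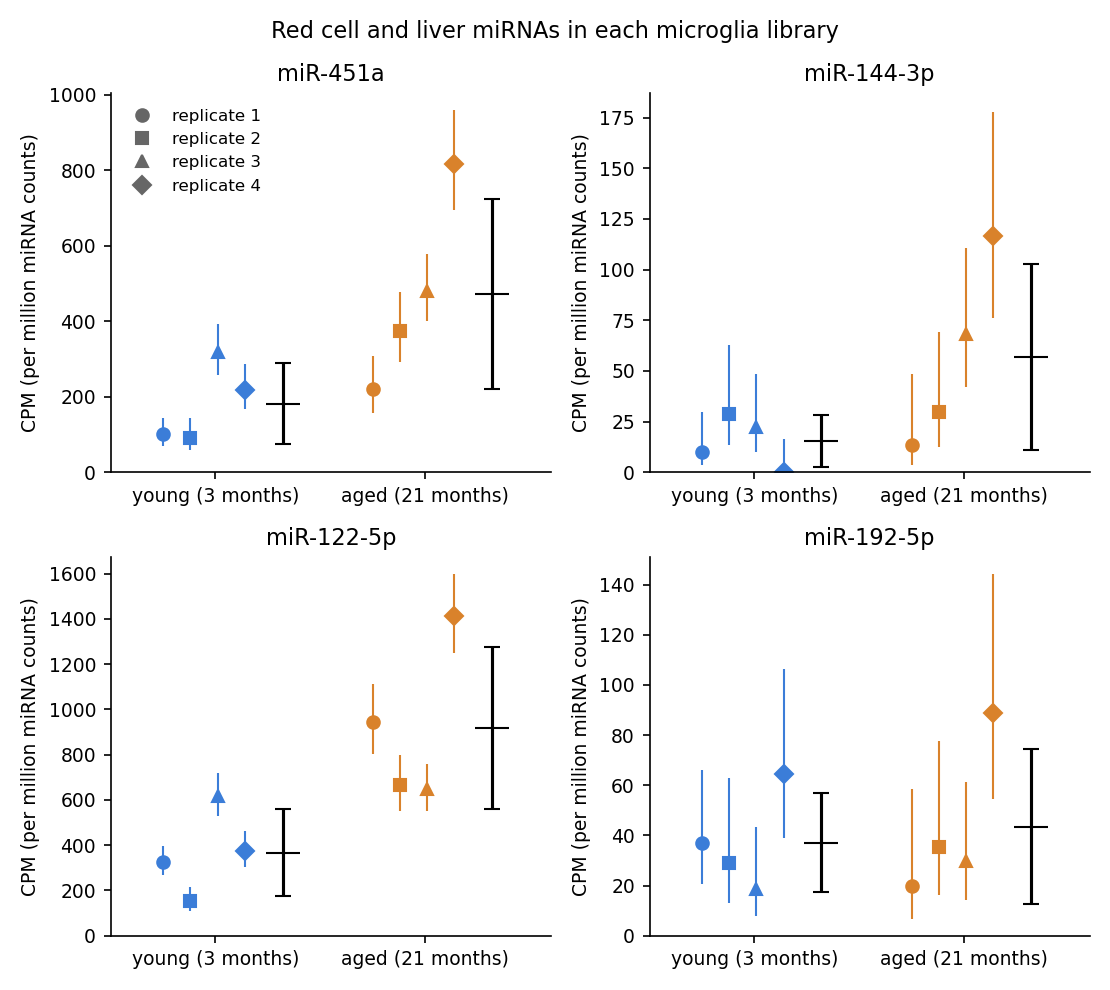
Level of the 4 tested red cell and liver miRNAs in each library, in CPM on linear axes that start at 0, with young mice in blue, aged mice in orange and Wilson 95% intervals as thin bars; the black mark is the mean with its SD (n = 4). For miR-122-5p the aged libraries start at 646 CPM, just above the highest young library at 616 CPM, while the ages overlap in the other panels.

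mmu-miR-122-5p was the most abundant of the 7 miRNAs. Young mice 1 to 4 had 97, 32, 167 and 87 counts, or 325, 154, 616 and 373 CPM, and aged mice 1 to 4 had 142, 112, 152 and 255 counts, or 945, 664, 646 and 1414 CPM. Every aged library was above every young one, but the gap was narrow, since the Wilson interval of young mouse 3 reached 717 CPM and that of aged mouse 3 began at 552 CPM. The mean was 367 ± 191 CPM in young and 917 ± 358 CPM in aged mice (SD, n = 4 each), and the log2 fold change was 1.35 with a standard error of 0.30 (edgeR, adjusted p = 0.000836). The exact permutation test gave p = 0.0286, the smallest value that 4 against 4 libraries allow, and among the 419 tested miRNAs 10 (2.39%) had all aged libraries above all young ones and 20 (4.77%) had no overlap in either direction. miR-122-3p, from the other arm of the hairpin, was at 0 in all 8 libraries. Its own difference was not extreme in size, as 40 of the 419 tested miRNAs (9.55%) had a larger log2 fold change.

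mmu-miR-192-5p did not pass the test. Young mice 1 to 4 had 11, 6, 5 and 15 counts, or 36.8, 28.8, 18.4 and 64.3 CPM, and aged mice 1 to 4 had 3, 6, 7 and 16 counts, or 20.0, 35.5, 29.8 and 88.7 CPM. Mouse 4 of each age was the highest of its group and the remaining libraries of both ages lay within the same range. The log2 fold change was 0.26 with a standard error of 0.79 (edgeR, adjusted p = 0.930), so at this depth neither a change of the size seen for miR-122-5p nor its absence was shown. The sign turned without aged mouse 4, to -0.35. miR-194-5p, made with miR-192-5p from the chromosome 19 locus, had 1 count in young mouse 3, 1 in aged mouse 2 and 4 in aged mouse 3, and was under the number of counts needed for a test.

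Some of the rarest products appeared mainly in 1 library. Aged mouse 3 held all 4 counts of miR-144-5p, all 4 counts of miR-192-3p, 4 of the 6 counts of miR-194-5p and 3 of the 4 counts of miR-215-5p, together 15 of 18 counts. This grouping was made after the values were seen, and it leaves out the 3p arms of miR-486a and miR-486b, which were highest in young mouse 2. The full list of 10 relatives, those 3p arms included, had 16 counts in young mouse 2 and 15 in aged mouse 3. In the same library miR-192-5p had 7 counts and miR-144-3p 16, and aged mouse 4, with more miR-451a and miR-122-5p, held 1 of the 18. miR-194-1-3p, miR-194-2-3p and miR-215-3p were at 0 throughout.

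The order of levels was the same at its top in every library. miR-122-5p exceeded miR-451a in 8 of 8 libraries, by 1.02 ± 0.55 on the log2(CPM + 5) scale (SD over libraries), and miR-451a exceeded miR-192-5p in 8 of 8, by 2.70 ± 1.03. Each gave p = 0.0078 in a two-sided exact permutation test over the 256 sign flips, the smallest value possible. The pairs compared were neighbours in the order seen in these same libraries, so the p-values give no independent support for that order. miR-192-5p and miR-144-3p did not differ beyond their spread (0.54 ± 1.50, higher in 4 of 8 libraries, exact permutation p = 0.375). These levels compare whole mature miRNAs of 20 to 22 bases, and unequal ligation of adapters to different miRNAs was not tested. There were 1.35 to 4.30 counts of miR-122-5p for each count of miR-451a, with the 2 highest ratios in young mouse 1 (3.23) and aged mouse 1 (4.30).

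The call of both higher miRNAs rested on the library of aged mouse 4, which pooled 2 mice, on the form of the test and on the filter. Without that library the log2 fold change of miR-451a was 1.02 (standard error 0.40, edgeR adjusted p = 0.191) and that of miR-122-5p was 1.04 (0.34, adjusted p = 0.0938), and 3 of 419 miRNAs (0.716%) were called in all. With bias-adjusted quasi-likelihood estimates 2 of 419 (0.477%) were called, and the adjusted p was 0.0660 for miR-451a and 0.0538 for miR-122-5p. DESeq2 called 10 of 386 (2.59%), with miR-122-5p among them (adjusted p = 0.0313) and miR-451a not (0.0619). The direction stayed positive for both in every setting run, with log2 fold changes of 1.02 to 1.85 for miR-451a and 1.04 to 1.71 for miR-122-5p when single libraries were left out.

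**Figure D2:**
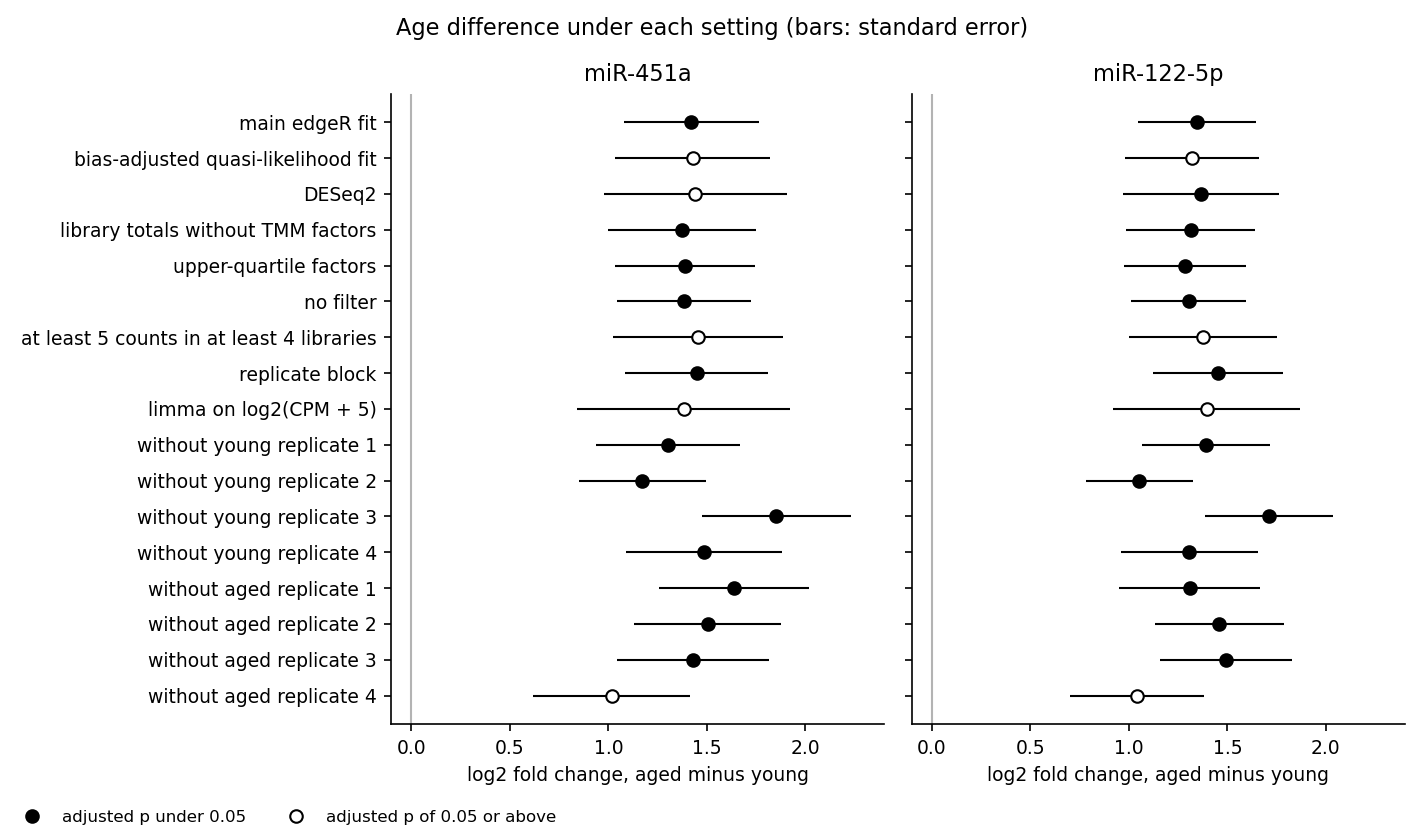
Log2 fold change, aged minus young, of miR-451a and miR-122-5p under the main edgeR fit and 16 alternatives; bars are standard errors, filled circles have an adjusted p under 0.05 and open circles do not. All points lie above 0, and the lowest miR-451a value, 1.02, is that without aged mouse 4.

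Across the 8 libraries miR-451a and miR-122-5p had the highest correlation of the 6 pairs among the 4 tested miRNAs. Pearson's r of log2(CPM + 5) was 0.856 (two-sided exact permutation p = 0.00739) and Spearman's rho was 0.833 (exact permutation p = 0.0154). Adjusted over all 1666 pairs of a tested red cell or liver miRNA with any tested miRNA, these became 0.586 and 0.850, and no pair passed, while 125 of the 1666 (7.50%) had an unadjusted p below 0.05. Young mouse 2 was lowest and aged mouse 4 highest in both miRNAs. Without these 2 libraries, the farthest from the median of miR-451a, r was 0.608 (exact permutation p = 0.210). Leaving out the extremes narrows the range of miR-451a, which can lower r by itself, so this value does not show how far the relation rests on them. When single libraries were left out, r was 0.777 to 0.946. Part of the relation is the shared difference between the ages: with each age centred on its own mean, r was 0.696 (p = 0.090, exact permutation within ages). No value is given within each age alone, since correlations were kept to at least 6 libraries and an age has 4.

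The 2 miRNAs of the erythroid locus, miR-451a and miR-144-3p, gave r = 0.610 (exact permutation p = 0.103, adjusted p = 0.767) and rho = 0.738 (exact permutation p = 0.0458, adjusted p = 0.874). Without young mouse 2 and aged mouse 4 r was 0.645, above the 0.608 of miR-451a with miR-122-5p in the same 6 libraries, and with the ages centred it was 0.331. The difference between these correlations was not tested. The 4 libraries with the most miR-451a, aged mice 4, 3 and 2 and young mouse 3, had 116, 68.0, 29.6 and 22.13 CPM of miR-144-3p, in the same order. Among the other 4, young mouse 4 had 0 counts of miR-144-3p at 219 CPM of miR-451a, and young mouse 2 had 6 counts at 91.2 CPM. Counts of this size limit any correlation, as 3 counts or fewer of miR-144-3p were found in 3 of the 8 libraries.

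The correlation of miR-192-5p with miR-122-5p, both liver miRNAs, did not pass the test and was not stable in sign. Their r was 0.198 (exact permutation p = 0.641, adjusted p = 0.941) and rho was 0.143 (exact permutation p = 0.752, adjusted p = 0.973), and r turned to -0.715 (exact permutation p = 0.104) without young mouse 2 and aged mouse 4. With miR-451a, miR-192-5p gave r = 0.367 and rho = 0.214 (exact permutation p = 0.373 and 0.619, adjusted p = 0.882 and 0.958), and r turned to -0.235 without the same 2 libraries. miR-144-3p gave r = 0.450 and rho = 0.524 with miR-122-5p (exact permutation p = 0.259 and 0.197, adjusted p = 0.862 and 0.874) and r = 0.101 and rho = 0.095 with miR-192-5p (exact permutation p = 0.812 and 0.840, adjusted p = 0.982 and 0.988). Without young mouse 4 and aged mouse 4 these r were 0.048 and 0.126.

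**Figure D3:**
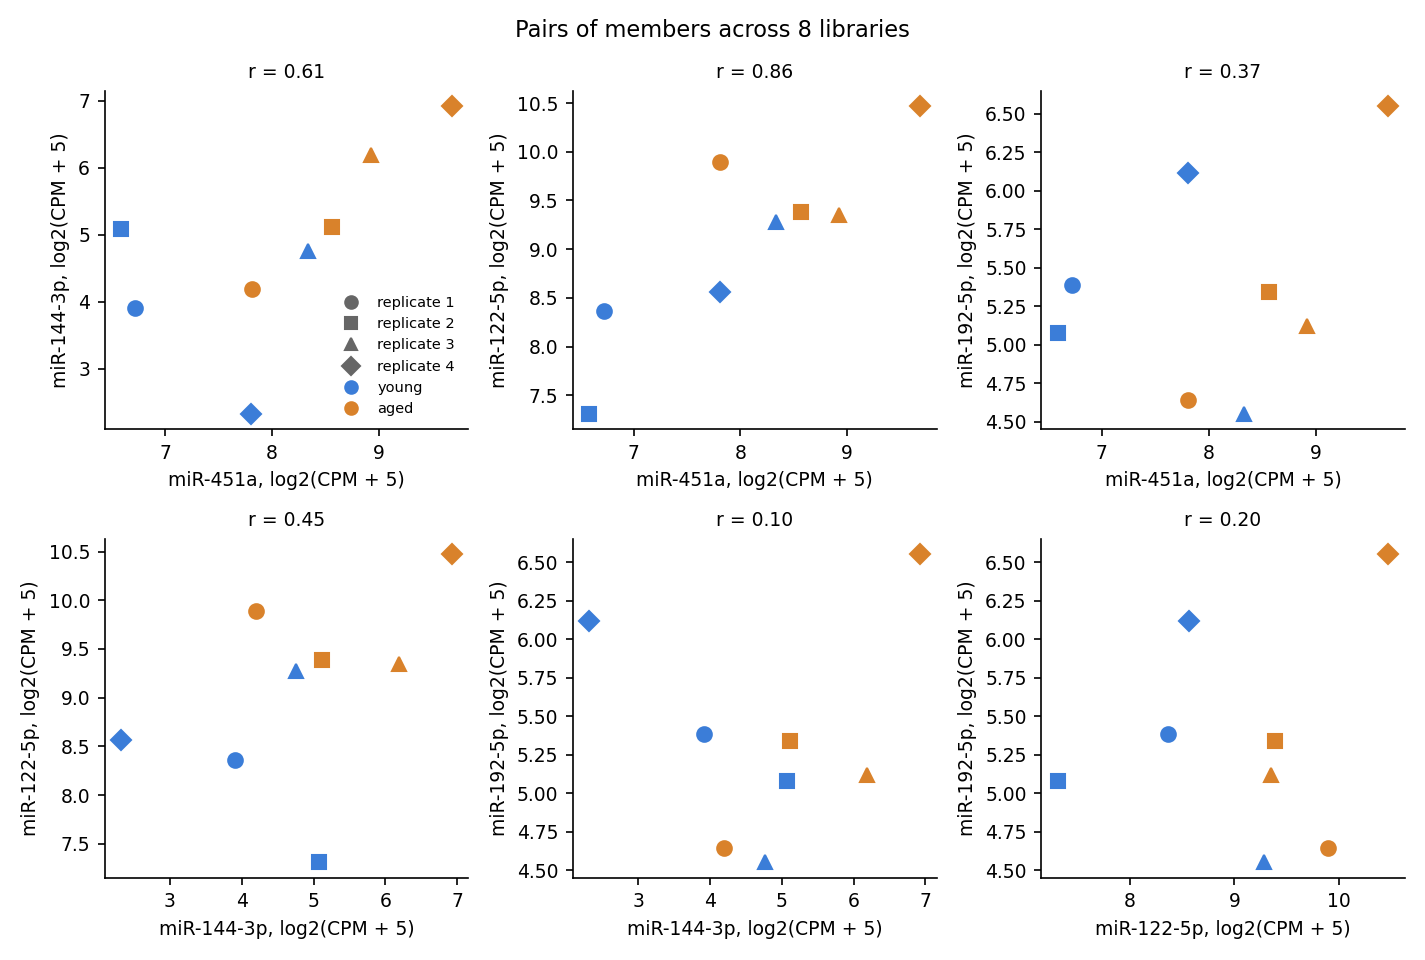
Levels of the 6 pairs of tested red cell and liver miRNAs across the 8 libraries, both axes as log2(CPM + 5), with young mice in blue, aged mice in orange and the marker giving the replicate number, which names a library and does not pair mice. Aged mouse 4 is the upper right point of every panel, and the plot of miR-451a against miR-122-5p is the closest to a line (r = 0.86).

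All pairs of tested miRNAs give the level of covariation in these libraries. Of 87571 pairs, 1.01% had an r as high as that of miR-451a with miR-122-5p, 8.39% as high as that of miR-451a with miR-144-3p and 23.8% as high as that of miR-451a with miR-192-5p. Among the 167 miRNAs with a mean of at least 20 counts, where sampling noise is smaller, the first share was 2.14% and the second 12.1%. The median r of all pairs was 0.055. These pairs share libraries and depth and are not independent.

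**Figure D4:**
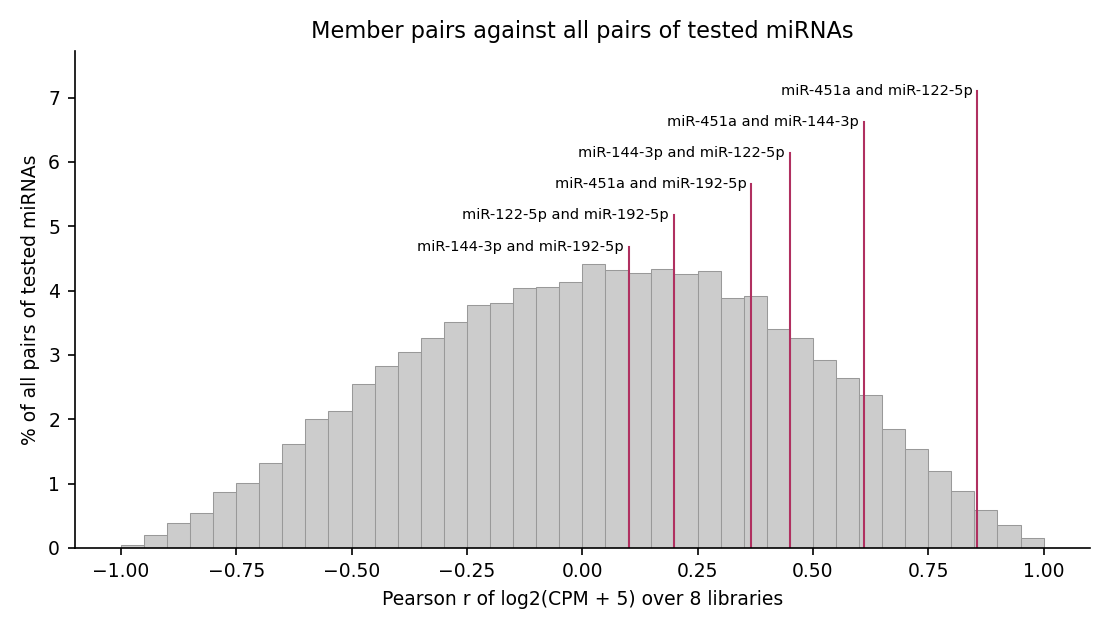
Histogram of Pearson's r over the 8 libraries for all 87571 pairs of the 419 tested miRNAs, as % of pairs on the vertical axis, with lines at the 6 pairs of red cell and liver miRNAs. The pair of miR-451a and miR-122-5p (0.86) lies in the upper tail, with 1.01% of pairs as high, and the 5 other pairs lie between 0.10 and 0.61.

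miR-122-5p was only the fourth closest companion of miR-451a among those 167 miRNAs. Higher r were found for miR-15b-5p (0.909), miR-101a-3p (0.906) and miR-342-3p (0.887), and miR-149-5p (0.762) came after it. For miR-122-5p the closest were miR-149-5p (0.908), miR-451a (0.856), miR-664-3p (0.851), let-7e-5p (0.850) and let-7a-1-3p (0.845). miR-101a-3p, whose seed resembles that of miR-144-3p, had 720 to 1080 CPM in young and 1005 to 1467 CPM in aged mice, and miR-342-3p had 8768 to 11008 CPM over all libraries, so that its r describes a far smaller range than the 91.2 to 815 CPM of miR-451a. miR-15b-5p, a relative of miR-16-5p, spanned 114 to 322 CPM in young and 373 to 527 CPM in aged mice without overlap (log2 fold change 1.01, standard error 0.34, edgeR adjusted p = 0.0614). miR-149-5p spanned 24.0 to 112 CPM in young and 136 to 273 CPM in aged mice and was called higher (log2 fold change 1.56, standard error 0.46, edgeR adjusted p = 0.0280). These names describe likeness over 8 libraries and carry no test.

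None of the other miRNAs that are abundant in red cells was called. Of 14 listed, such as miR-16-5p, miR-92a-3p and miR-93-5p, 12 were detected and 10 tested, and edgeR called 0 in either direction, as did DESeq2 and limma (median log2 fold change 0.09, against -0.07 over all 419). As edgeR called 3.82% of all 419 tested miRNAs, 0 calls among 10 do not set this list apart. At an unadjusted p under 0.05 there were 3 by edgeR, with miR-15b-5p higher (log2 fold change 1.01) and miR-92a-3p (-0.69) and miR-93-5p (-0.52) lower in aged mice. Over all 419 the share at that threshold was 12.2%. Their summed level was 28159 to 47562 CPM in young and 28405 to 32196 CPM in aged libraries, and miR-363-3p and miR-96-5p were at 0. These miRNAs are also made by most other cells, microglia included. miR-16-5p alone had 20631 to 28068 CPM in young and 19191 to 22774 CPM in aged mice, and the counts of miR-451a per 100 counts of miR-16-5p were 0.487, 0.328, 1.13 and 0.809 across young libraries 1 to 4 and 0.992, 1.64, 2.17 and 4.25 across the aged ones. Young mouse 3 exceeded aged mouse 1, and the other aged libraries were above all young ones.

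Likewise, none of the other miRNAs of liver, gut or kidney was called. Of 12 listed, 11 were in the table, 9 were detected and 4 tested, and edgeR, DESeq2 and limma called 0 (median log2 fold change 0.19), with 0 at an unadjusted p under 0.05. Over all 419 tested miRNAs the edgeR shares were 3.82% and 12.2%, so 0 among 4 does not set this list apart either. The list summed to 1401 to 2131 CPM in young and 1776 to 2038 CPM in aged libraries, nearly all of it miR-455-3p and miR-203-3p, which are not particular to these organs. Of its hepatic and renal members, miR-802-5p and miR-122-3p were at 0 and miR-192-3p, miR-215-5p and miR-148a-3p had 4, 4 and 5 counts in all.

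miRNAs of other blood and vessel cells were low and varied between libraries. miR-223-3p, a miRNA of neutrophils and platelets, had 11, 4, 5 and 0 counts across young libraries 1 to 4 (0 to 36.8 CPM) and 8, 9, 23 and 8 across the aged ones (44.4 to 97.8 CPM), without overlap but also without passing the test (log2 fold change 1.69, standard error 0.82, edgeR adjusted p = 0.365). Its other arm, miR-223-5p, was at 0. The endothelial miR-126a-3p had 3.35 to 59.0 CPM in young and 4.25 to 77.0 CPM in aged mice, with 72.1 CPM in aged mouse 4 but 4.25 CPM in aged mouse 3, which had the second highest miR-451a. The lymphocyte miRNA miR-150-5p was highest in aged mouse 4 (99.8 CPM) and young mouse 3 (73.8 CPM), the libraries with the most miR-451a and miR-122-5p of their ages, and lay between 0 and 21.4 CPM in the other 6. Aged mouse 4 was also highest in miR-143-3p (139 CPM) and miR-145a-5p (161 CPM), miRNAs of vessel muscle and pericytes. Of the 6 microglial and myeloid miRNAs, aged mouse 4 was lowest of all libraries in miR-142a-3p (4098 CPM) and miR-146a-5p (41548 CPM), highest in miR-155-5p (344 CPM) and miR-342-3p (11008 CPM), and neither in miR-142a-5p and miR-21a-5p. The sum of the 6 was lowest there, at 61246 CPM.

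**Figure D5:**
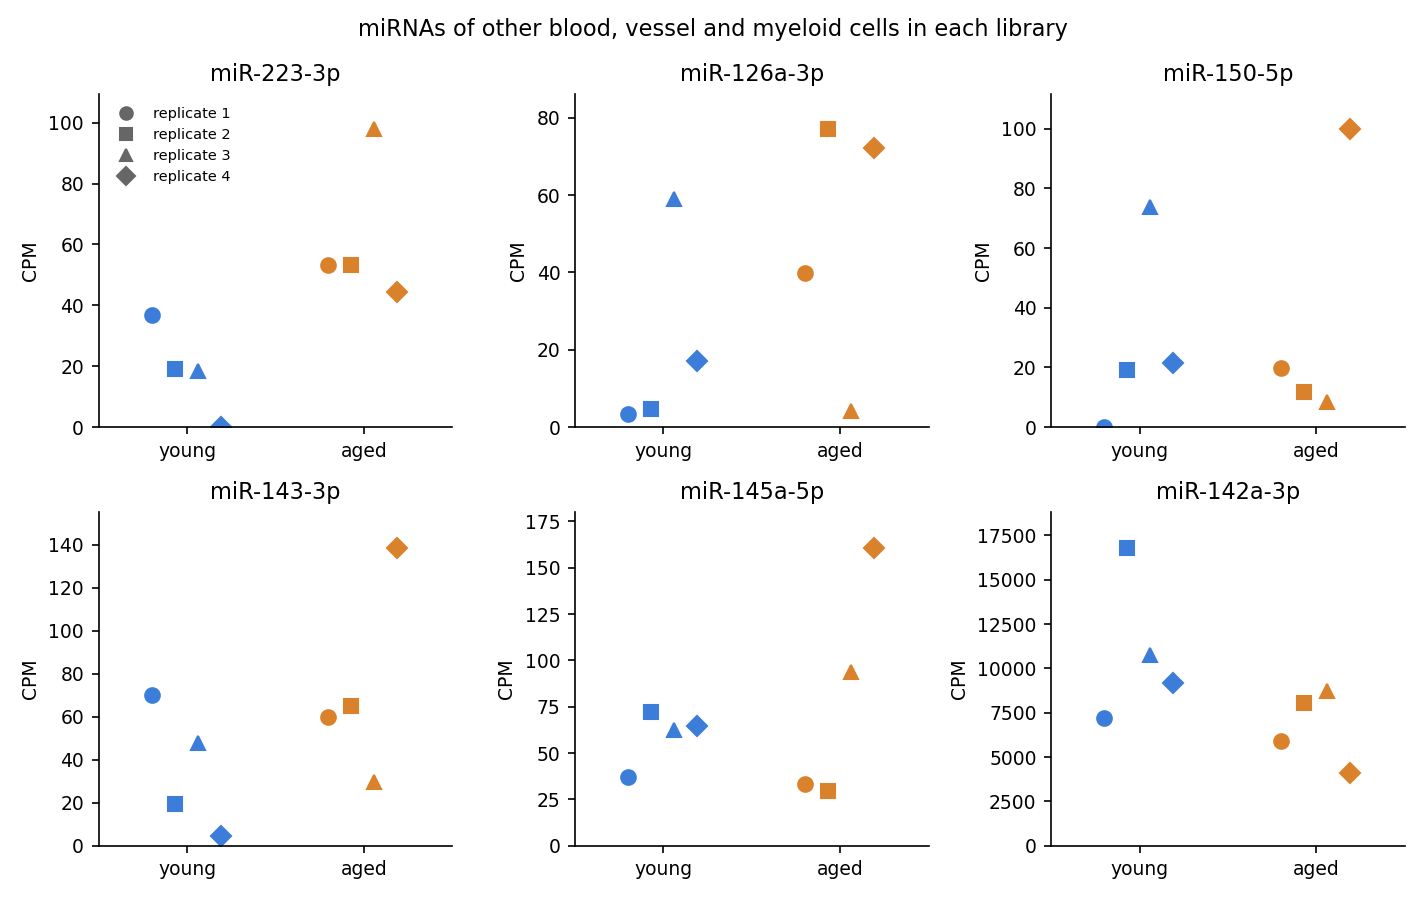
CPM of 6 miRNAs typical of neutrophils and platelets (miR-223-3p), endothelium (miR-126a-3p), lymphocytes (miR-150-5p), vessel muscle and pericytes (miR-143-3p and miR-145a-5p) and myeloid cells (miR-142a-3p) in each library, on linear axes from 0, with young mice in blue and aged mice in orange. Aged mouse 4 (orange diamond) is highest in miR-150-5p, miR-143-3p and miR-145a-5p and lowest in miR-142a-3p, unlike miR-155-5p and miR-342-3p of the same myeloid list (not plotted), in which it is highest, and miR-223-3p separates the ages.

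The summed levels of the remaining lists overlapped between the ages. Neuronal miRNAs summed to 284 to 1235 CPM in young and 412 to 1384 CPM in aged libraries, those of oligodendrocytes to 269 to 524 and 238 to 519 CPM, and those of astrocytes to 699 to 1453 and 665 to 1333 CPM. The endothelial pair summed to 3.35 to 84.8 and 4.25 to 111 CPM and the vessel muscle list to 68.6 to 111 and 93.1 to 299 CPM. Of 44 relations of the 4 tested red cell and liver miRNAs with the 10 list sums and the total miRNA counts, 0 passed adjustment (smallest adjusted p = 0.263) and 7 had an unadjusted exact permutation p below 0.05. Beside miR-451a with the liver, gut or kidney list, these were miR-122-5p with that list (r = 0.779) and the other red cell list (-0.714). The others were miR-144-3p with the vessel muscle (0.808) and platelet and neutrophil lists (0.734), and miR-192-5p with the oligodendrocyte (-0.751) and microglial and myeloid lists (-0.759). Nearly all of the liver, gut or kidney sum was miR-455-3p and miR-203-3p. miR-451a gave r = 0.799 with the liver, gut or kidney list (rho = 0.762, exact permutation p = 0.0174 and 0.0368, adjusted p = 0.263 and 0.504), r = -0.469 with the other red cell list (rho = -0.381, exact permutation p = 0.239 and 0.360, adjusted p = 0.574 and 0.633) and r = -0.680 with the microglial and myeloid list (rho = -0.643, exact permutation p = 0.0614 and 0.0962, adjusted p = 0.300 and 0.562). Without the 2 libraries farthest from the median of each list these r were 0.820, 0.112 and -0.112. With total counts r was -0.339 for miR-451a and -0.468 for miR-122-5p (rho = -0.238 and -0.619, exact permutation p = 0.410 and 0.243 for r and 0.582 and 0.115 for rho, adjusted p = 0.681 and 0.574 for r and 0.883 and 0.562 for rho), and without the 2 farthest libraries r was -0.244 and -0.252. The part of blood left in vessels, of plasma carried through the sort, and of expression by the sorted cells in any of these levels was not tested. In bulk libraries more cells of a type and more RNA per cell cannot be told apart.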

How the data were processed

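Per the labels and the study's methods, the authors sequenced small RNA, aligned reads to GRCm38 and mapped them to miRBase miRNAs with miRMaster and Bowtie. The authors deposited estimated counts per mature miRNA, neither normalized nor filtered. Of 3173 nonzero values, 68 held fractions, none of them among the 7 miRNAs; the design had assumed whole counts, so values were rounded for edgeR and DESeq2. Groups came from the sample names. The members and lists were chosen with earlier results of these data known. CPM was computed per 1000000 miRNA counts, since aligned-read totals were not used here.

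Age was tested in R 4.3.3 with edgeR 4.0.16 (quasi-likelihood fit without bias adjustment, TMM factors of 0.860 to 1.19, Benjamini-Hochberg adjustment over the 419 miRNAs that reached 5 counts in any library). Standard errors of edgeR fits were derived as the absolute log2 fold change divided by the square root of the F statistic of its test. DESeq2 1.42.0, limma 3.58.1 on log2(CPM + 5), other filters and factors, the replicate number as a block and leaving out each library were alternatives. Correlations used log2(CPM + 5) and exact permutations over 40320 orders (Python 3.11.15, scipy 1.17.1). Adjusted p-values under 0.05 passed. The named miRNAs were the 7 miRNAs, their hairpin arms and paralogs, listed miRNAs of other cell types, and the 5 miRNAs closest in r to each of the 7 with a mean of at least 20 counts. The scripts were tested on simulated data. Libraries are separate mice (1 pools 2). Permutation p-values use only the spread between them. The edgeR, DESeq2 and limma fits also share variance estimates over the tested miRNAs, so their p-values do not rest on the spread of 1 miRNA alone.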

Additional observations from a re-analysis of the deposited data

Results flagged for a closer look

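A library was set apart where its gap to the nearest other of its group, divided by the range of the group, exceeded Dixon's 95% critical value. This held in 8 of 43 groups of 4 libraries looked at. For normally distributed values chance gives about 1 in 20, or 2.15. That rate does not apply where only 1 library held any count, since a single count then sets the ratio to 1.00. In 5 of the 8 the value was 1.00, since only 1 library of the group held any count: miR-144-5p in aged mice (17.0 CPM in mouse 3), miR-194-5p in young mice (3.69 CPM in mouse 3, 1 count), miR-486b-3p in young mice (33.6 CPM in mouse 2) and in aged mice (12.8 CPM in mouse 3), and miR-192-3p in aged mice (17.0 CPM in mouse 3). In the remaining 3, miR-16-5p was lowest in young mouse 1 (20631 CPM, ratio 0.863), miR-150-5p highest in aged mouse 4 (99.8 CPM, ratio 0.875) and miR-223-3p highest in aged mouse 3 (97.8 CPM, ratio 0.832). Neither miR-451a nor miR-122-5p had such a library in either age.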

How the results depend on the processing

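The number of miRNAs called with age, 16, was 2 with bias adjustment, 10 by DESeq2, 2 with at least 5 counts in at least 4 libraries and 0 by limma (40 at an unadjusted p under 0.05), and 3 to 22 when single libraries were left out, with 9 without young mouse 2, 6 without aged mouse 1 or aged mouse 3 and 3 without aged mouse 4. For the log2 fold change of miR-451a, adjusted p was above 0.05 with bias adjustment (1.43, 0.0660), by DESeq2 (1.44, 0.0619), with at least 5 counts in at least 4 libraries (1.45, 0.0922), by limma (1.38, 0.434) and without aged mouse 4 (1.02, 0.191), and for miR-122-5p with bias adjustment (1.32, 0.0538), with the stricter filter (1.38, 0.0797), by limma (1.39, 0.434) and without aged mouse 4 (1.04, 0.0938). In the other 11 and 12 settings, respectively, both kept their call. Leaving out single libraries gave 1.02 to 1.85 for miR-451a, 1.04 to 1.71 for miR-122-5p, 1.32 to 2.30 for miR-144-3p and -0.35 to 0.59 for miR-192-5p, the lowest of which, without aged mouse 4, turned its sign. miR-144-3p and miR-192-5p were called in no setting. Among the listed miRNAs of other cell types and the relatives, 1 was called (miR-155-5p), with 0 by limma and 1 to 3 when single libraries were left out (2 without young mouse 1, 3 without young mouse 3).

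No correlation passed adjustment in any setting. Signs turned for miR-144-3p with miR-192-5p at a pseudocount of 1 CPM (-0.070) and without aged mouse 4 (-0.58), for miR-144-3p with miR-122-5p with ages centred (-0.016), for miR-451a with miR-192-5p without aged mouse 4 (-0.14) and without the 2 farthest libraries (-0.23), and for miR-122-5p with miR-192-5p likewise (-0.36 and -0.72). Leaving out single libraries gave r of 0.777 to 0.946 for miR-451a with miR-122-5p, 0.374 to 0.791 with miR-144-3p and -0.14 to 0.475 with miR-192-5p, 0.156 to 0.741 for miR-144-3p with miR-122-5p, -0.58 to 0.677 with miR-192-5p, and -0.36 to 0.395 for miR-122-5p with miR-192-5p. The share of pairs as high as miR-451a with miR-122-5p was 2.14% among abundant miRNAs. The causes of these changes were not tested.

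Replicate numbers were shared by the ages, but deviations of same-numbered mice correlated at -0.165, -0.134, -0.051 and 0.176, and the labels name no shared litter or batch. The fit with the replicate number as a block called 11 miRNAs, with miR-451a at 1.45 (adjusted p = 0.00566) and miR-122-5p at 1.45 (0.00159). Depth limits the rare miRNAs most: 1 count is worth 3.35 to 6.65 CPM, so miR-144-5p, miR-194-5p and miR-486a-5p allow no statement on age.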
